A study of Homo sapiens with 16 samples.

Results

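The 10 genes described here belong to the early secretory pathway and were measured in LNCaP cells, a human prostate cancer line, in which the IRE1α-XBP1s arm of the unfolded protein response was inhibited in 2 ways. Their rule names families and functions, but it was set with earlier results of these data known, and they make up 10 of the 58051 genes in the count table. They are the cargo lectins LMAN1, LMAN2 and LMAN2L, the LMAN1 partner MCFD2, the cargo receptor SURF4, the KDEL receptors KDELR1, KDELR2 and KDELR3, and the cycling membrane proteins ERGIC1 and ERGIC3. All 10 passed the filter on low counts in both comparisons.

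Total RNA was sequenced in 16 libraries, 4 in each of 4 groups. In the knockdown experiment, the siCtrl group received Allstar control siRNA and the siXBP1 group received XBP1-specific siRNA for 2 days. In the inhibitor experiment, the Vehicle group received DMSO and the MKC8866 group received MKC8866, an inhibitor of the IRE1α RNase, at 10 μM, each for 24 h. Every group, controls included, was then exposed to 30 nM thapsigargin for 3 h, which empties ER calcium and causes ER stress, so no library shows these genes in unstressed cells. All cells were of 1 line at passage 20 in regular growth medium. The labels do not say whether the 4 libraries of a group came from separate cultures, so p-values measure the spread between these libraries, which may be technical.

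Newly made secretory proteins leave the ER in COPII vesicles, and transmembrane cargo receptors gather soluble proteins into them. LMAN1 (ERGIC-53) is a mannose-binding lectin that works with the calcium-binding protein MCFD2 to export blood coagulation factors V and VIII, LMAN2 (VIP36) and LMAN2L (VIPL) are related lectins, and SURF4 exports many soluble cargoes. In the other direction, KDEL receptors bind ER chaperones that have escaped to the Golgi and return them in COPI vesicles, while ERGIC1 and ERGIC3 belong to a family of membrane proteins that cycle between the ER and the Golgi. XBP1s, the transcription factor made once IRE1α has spliced XBP1 mRNA, is known for raising many genes of the secretory pathway.

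Sequence upstream of the start sites was searched for the letters that ER stress response factors are known to bind. RefSeq promoter windows (GRCh38.p14, 250 bases before to 50 after the start) were given for 8 of the 10 genes, all but KDELR2 and ERGIC1. Both strands were searched for 4 motifs: the ER stress response elements ERSE and ERSE-II by name, the core TGACGTGG of the unfolded protein response element (UPRE), and GCCACGT, which can overlap the UPRE core when the core lies on the opposite strand. The windows of SURF4 and KDELR3 held matches and those of LMAN1, LMAN2, LMAN2L, MCFD2, KDELR1 and ERGIC3 held none. The matching stretches are printed because they are the only matches among the 10 genes, with the matched letters in capitals, and each is read 5′ to 3′ in the direction of its gene.

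SURF4, chr9:133376097-133376123, minus strand: ggcttggcctACGTGGCagccgctgga

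KDELR3, chr22:38468039-38468067, plus strand: ggccgccctgGCCACGTCAccgcccggcc

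The SURF4 match was GCCACGT on the opposite strand, 53 to 47 bases before the RefSeq start, and this stretch lies inside the SURF4 gene as it was counted. The KDELR3 match joined GCCACGT to the UPRE core on the opposite strand and lay 47 to 39 bases before the start. Among all 35093 promoter windows, 3.22% held GCCACGT and 0.729% held the UPRE core. ERSE was found in 0.0769% and ERSE-II in 0.0541% of all windows, and in none of the 8 genes. A match describes letters, and no binding was measured in these samples.

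The knocked-down gene was measured first. XBP1 stood at 385, 421, 366 and 359 CPM (counts in every 1000000 of the TMM-scaled library size) in the siCtrl libraries and at 51.2, 54.2, 54.1 and 53.2 CPM in the siXBP1 libraries, a log2 fold change of −2.85 (SE 0.0505, adjusted p = 2.92e-20 by edgeR's quasi-likelihood test). With MKC8866 the total XBP1 level was 0.20 higher on the log2 scale (SE 0.0437, adjusted p = 0.00493), and these gene counts do not separate the spliced from the unspliced mRNA. From junction reads of its RNA-seq data and by qPCR, the paper reported less spliced XBP1 with both treatments. Library totals ran from 28713607 to 34509488 counted fragments. The 9 prostate luminal markers used, KLK3 and FOLH1 among them, were read in every library, and their summed level was 3455 to 3592 CPM in siCtrl, 2765 to 2918 in siXBP1, 3489 to 3705 in Vehicle and 3787 to 3982 in MKC8866 libraries. Markers of other cell types summed to 99.2 to 124 CPM over all libraries, nearly all of it from ACTA2, COL1A1 and VWF, while PTPRC, CD3E and COL1A2 were each at 0 in 14 of 16 libraries. The part of the luminal marker shift in the results was not tested, and in bulk RNA fewer cells of a type and less RNA per cell cannot be told apart.

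In the siCtrl libraries, levels divided by exon length placed SURF4 highest at 117 ± 4.56 CPM per kb (SD, n = 4) and KDELR3 lowest at 2.33 ± 0.370. LMAN2 came next to SURF4 at 74.4 ± 4.28 CPM per kb, clear of both neighbours in the order. KDELR1 at 57.4 ± 2.43, KDELR2 at 53.3 ± 2.87, LMAN1 at 49.3 ± 0.951 and ERGIC1 at 48.8 ± 0.715 CPM per kb formed a run in which each gene overlapped the next. MCFD2 (38.7 ± 1.25), ERGIC3 (22.8 ± 0.826) and LMAN2L (12.9 ± 0.740 CPM per kb) followed with no overlap. In siXBP1 libraries KDELR2 (25.9 ± 1.39) and LMAN1 (24.95 ± 0.382) moved below ERGIC1 (48.1 ± 1.01) and MCFD2 (28.3 ± 0.723 CPM per kb), and of these MCFD2 and KDELR2, and KDELR2 and LMAN1, overlapped. The Vehicle libraries gave the order of the siCtrl libraries except that KDELR2 (57.8 ± 2.61) and KDELR1 (54.8 ± 2.49 CPM per kb) changed places, with overlapping ranges. The length used joins all annotated exons of a gene, so it is long for genes such as ERGIC1 (14139 bases) and the level per kb is correspondingly low.

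After XBP1 knockdown 6 of the 10 genes fell, from LMAN2 at −0.27 to KDELR2 at −1.04 on the log2 scale, and 0 rose (adjusted p under 0.05, edgeR). LMAN1, MCFD2, SURF4 and KDELR3 lay between these, and LMAN2L, KDELR1, ERGIC1 and ERGIC3 did not pass. ERGIC3 was the 1 gene higher at an unadjusted p under 0.05, and also by DESeq2 after adjustment. Over all 21021 genes tested, 18.2% were lower and 16.5% higher by edgeR at an adjusted p under 0.05. The median log2 fold change of the 10 genes was −0.36, against 0.00499 over all genes tested. In 6 of the 10 genes all 4 siXBP1 libraries lay below all 4 siCtrl libraries, which held for 17.2% of the genes tested.

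With MKC8866, 4 of the 10 genes fell, LMAN1, MCFD2, SURF4 and KDELR2, with log2 fold changes between −0.49 and −0.40, and 0 rose by edgeR. An unadjusted p under 0.05 was met by 7 lower genes and by 1 higher gene, ERGIC1, and DESeq2 called 5 lower and 0 higher. Over all 21045 genes tested, 3.11% were lower and 1.36% higher by edgeR at an adjusted p under 0.05. These shares stand beside the edgeR calls only, and none is given for the unadjusted and DESeq2 counts. The median of the 10 genes was −0.18, against 0.0027 over all genes tested. All 4 MKC8866 libraries lay below all 4 Vehicle libraries in 6 of the 10 genes, the 4 called genes together with LMAN2 and KDELR3, against 5.29% of the genes tested. The labels give the replicate numbers no meaning, so taking them as pairs in this experiment is an assumption. Deviations from the group mean correlated at r = 0.102 to 0.379 for same-numbered libraries and −0.252 to 0.159 for the others. Once the model held the replicate number as a block, LMAN2 and KDELR1 were also called lower and ERGIC1 higher. That made 6 lower and 1 higher in all, beside 7.05% lower and 6.0% higher over all genes.

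**Figure D1:**
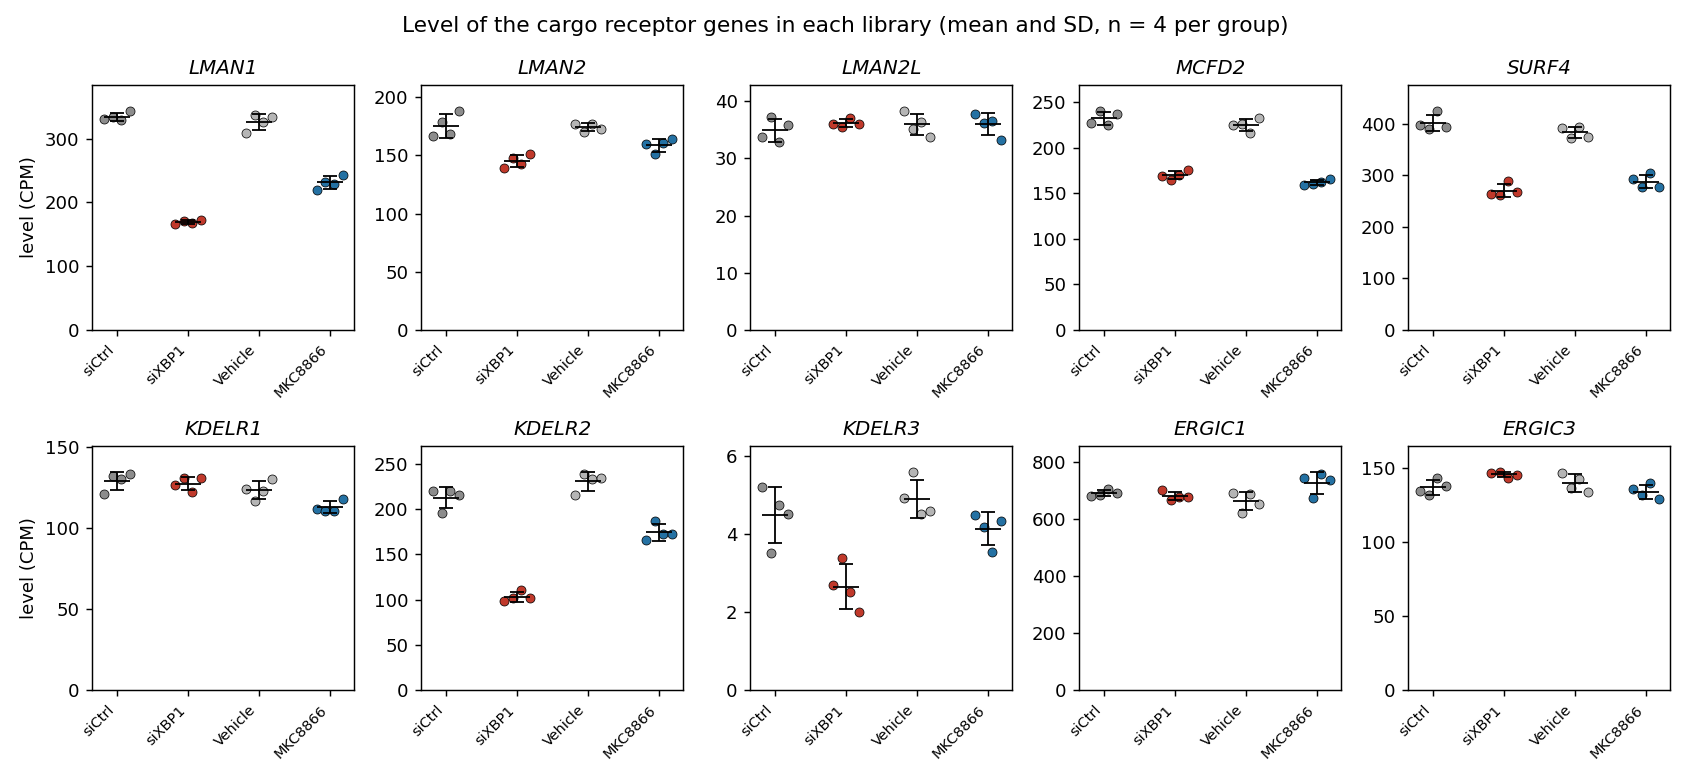
Level of each of the 10 genes in CPM (vertical axes, linear from 0) in the 4 libraries of each group; points are libraries, horizontal marks means and bars SD. The siXBP1 points lie below all siCtrl points for LMAN1, LMAN2, MCFD2, SURF4, KDELR2 and KDELR3, and the groups overlap for the other 4 genes.

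Among the cargo lectins, LMAN1 fell furthest. LMAN1 (ENSG00000074695, chr18:59327823-59359962, minus strand, GRCh38) was at 330, 333, 328 and 343 CPM in siCtrl libraries and at 166, 170, 167 and 172 CPM in siXBP1 libraries. The groups did not overlap, and the siXBP1 mean was 49.4% lower. Its log2 fold change after knockdown was −0.98 (SE 0.0368, adjusted p = 2.87e-15). In the inhibitor experiment LMAN1 was at 308, 337, 326 and 333 CPM with Vehicle and at 220, 232, 229 and 243 CPM with MKC8866. The highest MKC8866 library was thus below the lowest Vehicle library, and the log2 fold change was −0.49 (SE 0.0407, adjusted p = 6.76e-09).

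LMAN2 (ENSG00000169223, chr5:177331562-177351852, minus strand), a lectin of the early secretory pathway, moved less. Its level was 166, 179, 168 and 188 CPM in siCtrl and 139, 147, 143 and 151 CPM in siXBP1 libraries, and the groups did not overlap. The log2 fold change was −0.27 (SE 0.0445, adjusted p = 3.71e-05). With Vehicle LMAN2 stood at 177, 170, 177 and 173 CPM and with MKC8866 at 160, 151, 160 and 164 CPM. These groups did not overlap either, but the difference of −0.13 (SE 0.0392) gave an adjusted p of 0.0585, and of 1.83e-04 with the replicate block.

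LMAN2L (ENSG00000114988, chr2:96705929-96740064, minus strand), the ER-based relative of LMAN2, ranged from 32.9 to 38.3 CPM over all 16 libraries and its groups overlapped in both experiments. The log2 fold change was 0.05 after knockdown (95% interval −0.05 to 0.15, adjusted p = 0.511) and 0.00 with MKC8866 (−0.10 to 0.11, adjusted p = 0.992), where intervals are 1.96 standard errors on each side. The log2 ratio of LMAN1 to LMAN2, both per kb, was −0.59 ± 0.0573 in siCtrl and −1.30 ± 0.0301 in siXBP1 libraries (SD, n = 4). In the inhibitor experiment this ratio was −0.62 ± 0.0814 with Vehicle and −0.98 ± 0.0698 with MKC8866, and in both experiments the treated and control ranges were apart.

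MCFD2 (ENSG00000180398, chr2:46901870-46941855, minus strand), the partner of LMAN1, was at 227, 240, 225 and 237 CPM in siCtrl and 169, 165, 170 and 175 CPM in siXBP1 libraries. With Vehicle it was at 225, 226, 217 and 233 CPM and with MKC8866 at 159, 160, 162 and 166 CPM. Treated and control libraries were apart in both experiments and the size of the fall was alike. The log2 fold change was −0.45 (SE 0.0392, adjusted p = 4.72e-09) after knockdown and −0.47 (SE 0.0382, adjusted p = 5.03e-09) with MKC8866. Of the MCFD2 exon bases, 7.36% are shared with the opposite-strand gene ENSG00000228925 and 2.57% with TTC7A. Counting used no strand and dropped fragments that overlap 2 genes, so fragments in these stretches entered neither count. ENSG00000228925 held a mean of 38.2 counts and was lower in both comparisons, with log2 fold changes of −1.09 (adjusted p = 0.0143) and −1.82 (adjusted p = 7.31e-07), and its reads cannot be told apart from MCFD2 reads by strand. TTC7A was lower after knockdown (−0.34, adjusted p = 0.00290) and was not called with MKC8866 (−0.07, adjusted p = 0.831).

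LMAN1 and MCFD2 act as a complex, and their ratio differed between the experiments. The log2 ratio of LMAN1 to MCFD2 per kb was 0.35 ± 0.0346 in siCtrl, with libraries from 0.30 to 0.37, and −0.18 ± 0.0386 in siXBP1, from −0.21 to −0.13. After knockdown the LMAN1 level per kb was thus below that of MCFD2 in all 4 libraries, where in siCtrl it was above. Which gene is above depends on the exon lengths used, and the shared MCFD2 stretches count in its length though their fragments were dropped. The change between groups does not depend on these lengths. The ratio was 0.36 ± 0.0627 with Vehicle and 0.34 ± 0.0394 with MKC8866, and these ranges overlapped.

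SURF4 (ENSG00000148248, chr9:133361449-133376166, minus strand), the multi-spanning receptor whose promoter stretch is printed above, had the highest level per kb of the 10 genes in all 4 groups. It was at 398, 390, 425 and 394 CPM in siCtrl and 264, 261, 289 and 268 CPM in siXBP1 libraries. With Vehicle it was at 393, 373, 394 and 374 CPM and with MKC8866 at 293, 277, 304 and 278 CPM. Neither pair of groups overlapped. The log2 fold change was −0.57 (SE 0.0421, adjusted p = 3.24e-10) after knockdown and −0.41 (SE 0.0398, adjusted p = 9.86e-08) with MKC8866.

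The KDEL receptors, which retrieve ER chaperones, did not move alike. KDELR2 (ENSG00000136240, chr7:6445953-6484242, minus strand) was at 220, 196, 220 and 215 CPM in siCtrl and 98.2, 102, 111 and 102 CPM in siXBP1 libraries. Its level was 51.4% lower on average, the furthest fall of the 10 genes, with a log2 fold change of −1.04 (SE 0.0473, adjusted p = 8.30e-14). With Vehicle KDELR2 stood at 216, 239, 234 and 234 CPM and with MKC8866 at 165, 187, 173 and 172 CPM. The groups were again apart, with a log2 fold change of −0.40 (SE 0.0435, adjusted p = 6.30e-07). KDELR2 shares 9.42% of its exon bases with its same-strand neighbour DAGLB, which was not called in either comparison (log2 fold changes −0.02 and 0.10).

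KDELR1 (ENSG00000105438, chr19:48382570-48391553, minus strand) was at 121, 132, 130 and 133 CPM in siCtrl and 126, 131, 122 and 131 CPM in siXBP1 libraries. These groups overlapped throughout, with a log2 fold change of −0.02 (95% interval −0.10 to 0.06, adjusted p = 0.786) that turned to 0.032 with upper-quartile scaling and 0.018 with library totals. With Vehicle KDELR1 was at 124, 117, 123 and 130 CPM and with MKC8866 at 112, 111, 110 and 118 CPM. Those ranges overlapped narrowly, and the difference of −0.13 (SE 0.0430) had an adjusted p of 0.102, and of 6.47e-04 with the replicate block. Without Vehicle replicate 2 the difference was −0.16 (adjusted p = 0.0415).

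KDELR3 (ENSG00000100196, chr22:38468062-38483447, plus strand), the receptor whose promoter stretch is printed above, was the least expressed, with as few as 66 counts in a library. It was at 5.21, 3.52, 4.75 and 4.51 CPM in siCtrl and 2.69, 3.40, 2.51 and 2.01 CPM in siXBP1 libraries. The lowest siCtrl and the highest siXBP1 library nearly met, and the log2 fold change was −0.76 (SE 0.149, adjusted p = 3.15e-04). With Vehicle KDELR3 was at 4.92, 5.59, 4.52 and 4.58 CPM and with MKC8866 at 4.49, 4.19, 3.54 and 4.34 CPM. All MKC8866 values lay below all Vehicle values by a narrow gap, and the difference of −0.24 (SE 0.109) did not pass (adjusted p = 0.301).

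Summed per kb, the 3 receptors came to 113 ± 2.98 CPM per kb in siCtrl and 83.9 ± 1.43 in siXBP1 libraries, and to 115 ± 2.98 with Vehicle and 95.9 ± 2.41 with MKC8866 (SD, n = 4). KDELR2 made up 47.1% ± 1.90 of this sum in siCtrl and 30.9% ± 1.71 in siXBP1 libraries. KDELR1 correspondingly went from 50.8% ± 2.21 to 67.5% ± 1.67, so that the pair of receptors near-equal on this measure in the control became unequal after knockdown. These shares rest on full exon lengths, although fragments in the 9.42% of KDELR2 exon bases shared with DAGLB entered neither count. With Vehicle the KDELR2 share was 50.2% ± 1.71 and with MKC8866 45.5% ± 1.70, with ranges that did not overlap (48.3% to 52.3% and 44.1% to 47.7%). KDELR3 stayed between 1.23% and 2.53% of the sum in every library.

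The summed level of 25 ER lumenal residents, chaperones and folding enzymes many of which KDEL receptors retrieve, was 4209 ± 128 CPM per kb in siCtrl and 4389 ± 144 in siXBP1 libraries, with overlapping ranges. This sum was carried in large part by HSPA5 and HSP90B1, which made up 39.7% ± 0.844 of it in siCtrl and 46.5% ± 0.660 in siXBP1 libraries, while 15 of the 25 residents were called lower after knockdown and the list median was −0.23. The log2 ratio of residents to receptors was 5.22 ± 0.0360 in siCtrl and 5.71 ± 0.0530 in siXBP1 libraries. With Vehicle the residents came to 4315 ± 34.9 CPM per kb and with MKC8866 to 3891 ± 37.5, and the ratio was 5.23 ± 0.0296 and 5.34 ± 0.0240. The ratio was higher in every treated library than in every control library of the same experiment, in the knockdown with a resident sum that overlapped and in the inhibitor experiment with one that was lower. Without HSPA5 and HSP90B1, the sum of the other 23 residents was lower after knockdown with no overlap. It was 2473 to 2585 CPM per kb in siCtrl and 2297 to 2414 in siXBP1 libraries. The log2 ratio of these 23 residents to the receptors was 4.49 ± 0.0316 in siCtrl and 4.81 ± 0.0358 in siXBP1 libraries. It was 4.50 ± 0.0261 with Vehicle and 4.57 ± 0.0253 with MKC8866. The treated and control ranges of this ratio were still apart, in the inhibitor experiment only narrowly (highest Vehicle 4.528, lowest MKC8866 4.533).

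**Figure D2:**
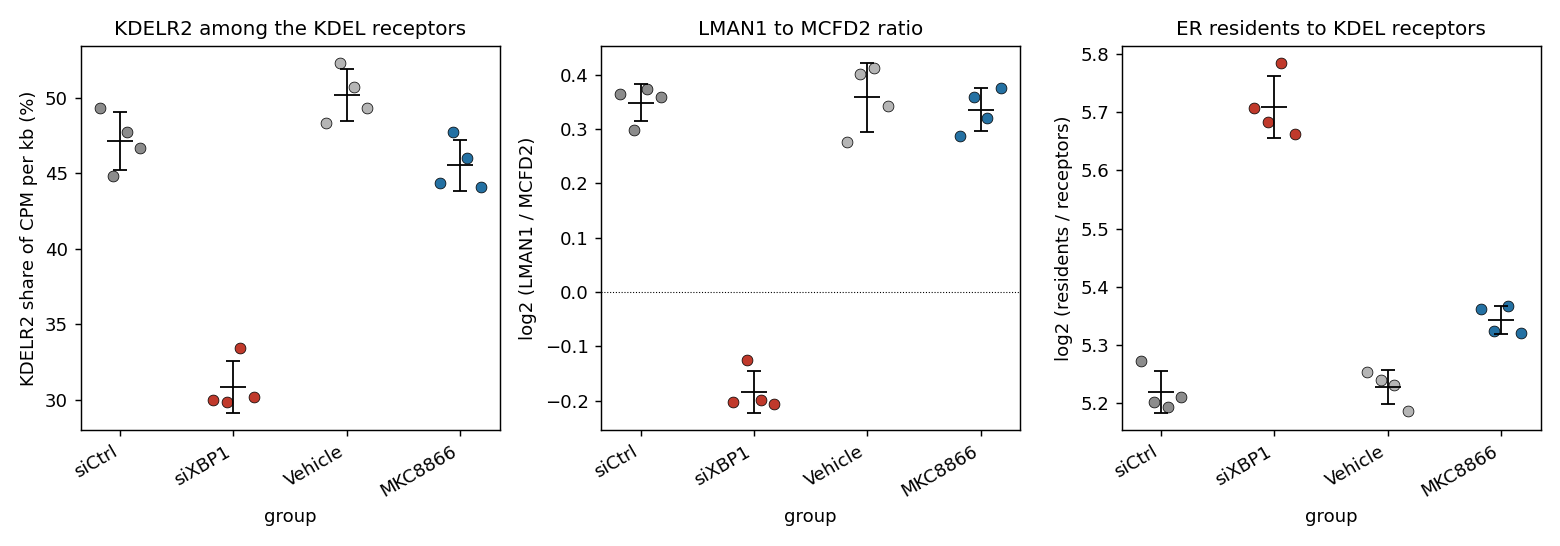
Per-library share of KDELR2 in the summed KDEL receptor level per kb (left, percent), log2 ratio of LMAN1 to MCFD2 per kb (middle) and log2 ratio of summed ER lumenal residents to summed KDEL receptors (right), with group means and SD; the vertical axes do not start at 0. The siXBP1 libraries stand apart from siCtrl in all 3 panels, whereas MKC8866 and Vehicle overlap in the middle panel.

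ERGIC1 and ERGIC3, like LMAN2L and KDELR1, were not called after knockdown. ERGIC1 (ENSG00000113719, chr5:172834275-172952685, plus strand) was at 681, 685, 704 and 689 CPM in siCtrl and 700, 667, 675 and 675 CPM in siXBP1 libraries. The groups overlapped, with a log2 fold change of −0.02 (95% interval −0.09 to 0.05, adjusted p = 0.704) that was 0.029 with upper-quartile scaling and 0.015 with library totals. With Vehicle ERGIC1 was at 691, 621, 687 and 652 CPM and with MKC8866 at 742, 672, 758 and 735 CPM. Replicate 2 was the lowest library in both groups, and each MKC8866 library was above the Vehicle library of its number. The log2 fold change was 0.14 (SE 0.0423), with an adjusted p of 0.0743 and of 4.88e-06 with the replicate block, and without MKC8866 replicate 2 it was 0.17 (adjusted p = 0.00809).

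ERGIC3 (ENSG00000125991, chr20:35542021-35557634, plus strand) was at 135, 132, 144 and 138 CPM in siCtrl and 147, 147, 144 and 146 CPM in siXBP1 libraries. The groups overlapped only at 144 CPM, and the log2 fold change was 0.09 (SE 0.0391, adjusted p = 0.0851), or 0.12 without siCtrl replicate 3 (adjusted p = 0.0406). With MKC8866 the log2 fold change was −0.06 (95% interval −0.14 to 0.02, adjusted p = 0.567). Of the ERGIC3 exon bases, 5.29% are shared with RPL36P4, which held a mean of 0 counts. ERGIC2, the partner of ERGIC3 in a complex, showed −0.06 after knockdown (adjusted p = 0.349) and fell by 0.19 with MKC8866 (adjusted p = 0.0336).

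**Figure D3:**
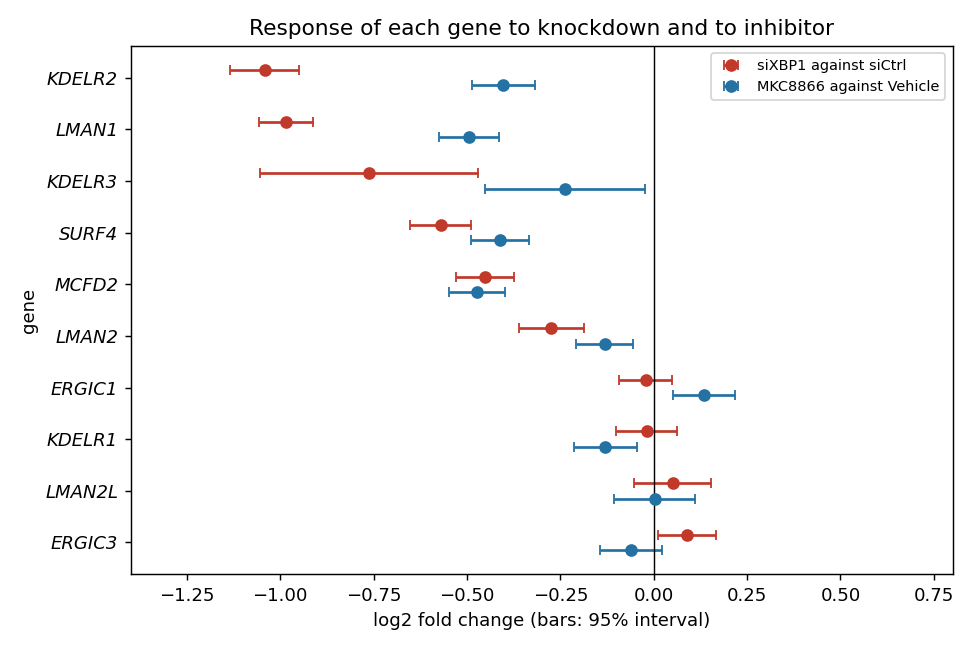
Log2 fold change of each gene after XBP1 knockdown (siXBP1 against siCtrl, red) and with MKC8866 (against Vehicle, blue), with bars for the 95% interval (1.96 standard errors on each side). KDELR2, LMAN1, KDELR3 and ERGIC1 have separate bars for the 2 treatments, the last 2 by a narrow gap, and the MCFD2 bars overlap at −0.45 and −0.47.

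Whether the 2 treatments gave different responses was tested as an interaction over all 16 libraries. The kind of inhibition, its duration and the experiment differ together here and cannot be told apart. The response to knockdown was below that to MKC8866 for 5 of the 10 genes and above it for 1, against 12.7% and 10.6% of the 20357 genes tested. KDELR2 differed by −0.64 (SE 0.0663, adjusted p = 1.26e-08) and LMAN1 by −0.49 (SE 0.0534, adjusted p = 3.56e-08), and both calls held under all 23 alternatives run. The other 4 calls were close to the threshold. SURF4 differed by −0.16 (adjusted p = 0.0498), KDELR3 by −0.52 (0.0475), ERGIC1 by −0.15 (0.0470) and ERGIC3 by 0.15 (0.0493), and each was lost under 13 to 15 of the 23 alternatives.

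For MCFD2 the difference was 0.02 with a 95% interval of −0.08 to 0.12 (adjusted p = 0.799), an interval that excludes a difference of the size seen for LMAN1. LMAN2 (−0.14, adjusted p = 0.0857, and 0.0179 with the replicate block), KDELR1 (0.11, adjusted p = 0.189) and LMAN2L (0.05, adjusted p = 0.694) did not pass without the block, which does not show equal responses.

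Similarity of pattern was measured as the root mean square difference of log2 (CPM + 0.5), centred on the control mean of each experiment, over the 16 libraries, where a smaller value is a closer pattern. All libraries share the scaling and the 2 experiments, so these are descriptions. The root mean square of a gene's own values was 0.0647 to 0.0827 for LMAN2L, ERGIC3, KDELR1 and ERGIC1, so these genes, which moved little, are close to each other on this measure: LMAN2L and ERGIC3 were the closest of the 45 pairs at 0.0712, and KDELR1 and ERGIC3 stood at 0.0925. For genes with larger movements, KDELR2 and LMAN1 (0.560 and 0.551) were apart by 0.0823, and MCFD2 and SURF4 (0.328 and 0.356) by 0.0968. LMAN1 and MCFD2 were farther apart at 0.269, and KDELR1 and KDELR2 at 0.536. Over all genes with at least 1 CPM, the 3 nearest to LMAN1 were TRIM27 (0.0651), SLC10A7 (0.0681) and MAGT1 (0.0723). TRAM1 (0.0604), LMAN1 and TXNDC15 (0.0884) were nearest to KDELR2. The genes nearest to SURF4 were ARCN1 (0.0443), a COPI coat subunit, BET1L (0.0568), a Golgi SNARE, and ZNF622 (0.0599). DNAJC3 (0.0592), ZNF791 (0.0594) and MIS12 (0.0602) were nearest to MCFD2. The genes named as near were CREB3 (0.0369) and ACTR8 (0.0476) for LMAN2, and ZNF550, TRIM52 and POP5 for KDELR3 (0.142 to 0.148). For the genes with small responses these were MRPL4, RPS15 and RAMP1 for LMAN2L, HK2, ZKSCAN1 and GTF2F1 for KDELR1, DNMT1, AKAP1 and TCOF1 for ERGIC1, and CIAO1, TBC1D20 and ASB8 for ERGIC3, at 0.0336 to 0.0498.

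The wider machinery of ER-Golgi traffic was counted beside these genes with the same edgeR calls. The counts in these lists stand against 18.2% of all genes lower and 16.5% higher after knockdown, and against 3.11% lower and 1.36% higher with MKC8866, and no test of a list was run. Where a list below has 0 genes higher in a comparison, 0 were also higher by DESeq2 and at an unadjusted p under 0.05, unless stated. The genes named TMED include the p24 cargo receptors, which cycle with COPI and COPII vesicles. Of 10 tested genes of that name, 6 fell after knockdown and 0 rose, with TMED10 at −0.81 and TMED5 at −0.71. With MKC8866, 5 fell, led by TMED7 (−0.58) and TMED5 (−0.47), and TMED8 rose by 0.18. The list median was −0.33 after knockdown and −0.21 with MKC8866, near those of the 10 cargo receptor genes.

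Of 16 tested genes of the COPII coat and ER exit sites, 12 fell after knockdown, and 9 fell and 0 rose with MKC8866. SEC24D, a cargo-binding COPII subunit, fell by 1.89 and by 1.05 on the log2 scale, SEC24C fell by 0.80 after knockdown, and PREB, the exchange factor that recruits the coat GTPase, fell by 0.73 with MKC8866. SEC31B, a weakly expressed paralogue of the outer coat subunit at 4.09 CPM, was the 1 gene of this list that rose after knockdown (0.59, adjusted p = 0.00237). Of 8 COPI coat genes 6 fell after knockdown, led by COPA (−1.16) and COPG1 (−0.75), and 7 fell with MKC8866, led by ARCN1 (−0.38) and COPB2 (−0.35), with 0 higher in either.

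Of 17 tethers and SNAREs, which dock and fuse the vesicles, 11 fell after knockdown and 8 with MKC8866, and 0 rose. The SNAREs BET1 (−1.65 and −0.75) and GOSR2 (−0.69 and −0.44) led in both comparisons. Of 8 other cargo receptors and adaptors 3 fell in each comparison, YIF1B, YIPF5 and YIF1A after knockdown (−0.35, −0.30 and −0.24), and YIPF5, YIF1B and ERGIC2 with MKC8866, where YIF1A rose by 0.18.

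The cargo itself was counted too. Of 7 tested genes whose products are reported cargo of LMAN1-MCFD2 or SURF4, 1 fell after knockdown, NUCB1 (−0.14, adjusted p = 0.0318), and 1 rose, F5, coagulation factor V (0.55, adjusted p = 5.64e-06), edgeR counts near the 18.2% lower and 16.5% higher over all genes. DESeq2 called 1 lower and 2 higher after knockdown, beside 3656 and 3443 over all genes. An unadjusted p under 0.05 was met by 1 lower and 3 higher, for which no share is given. With MKC8866 0 of the 7 passed in either direction by edgeR or DESeq2, and 1 in each direction had an unadjusted p under 0.05.

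Among the 25 ER lumenal residents, 15 fell and 4 rose after knockdown. FKBP14 (−1.25) and POGLUT1 (−1.07) fell furthest, and the 4 that rose were HSPA5 (0.30, adjusted p = 1.69e-05), HSP90B1 (0.27, adjusted p = 2.45e-05), PDIA4 (0.17) and MANF (0.15). HSPA5 (BiP) and HSP90B1 (GRP94) are abundant chaperones of the ER that KDEL receptors retrieve. With MKC8866 17 residents fell, FKBP14 (−0.82) and the weakly expressed TXNDC5 (−0.69, SE 0.127, mean 7.53 CPM over all libraries) furthest, and 0 rose. HSPA5 fell by 0.15 there (adjusted p = 0.00476), and its responses to the 2 treatments differed by 0.45 (adjusted p = 6.08e-07), opposite in sign to the difference for KDELR2. CALR was not called in either comparison (−0.01 and −0.04).

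**Figure D4:**
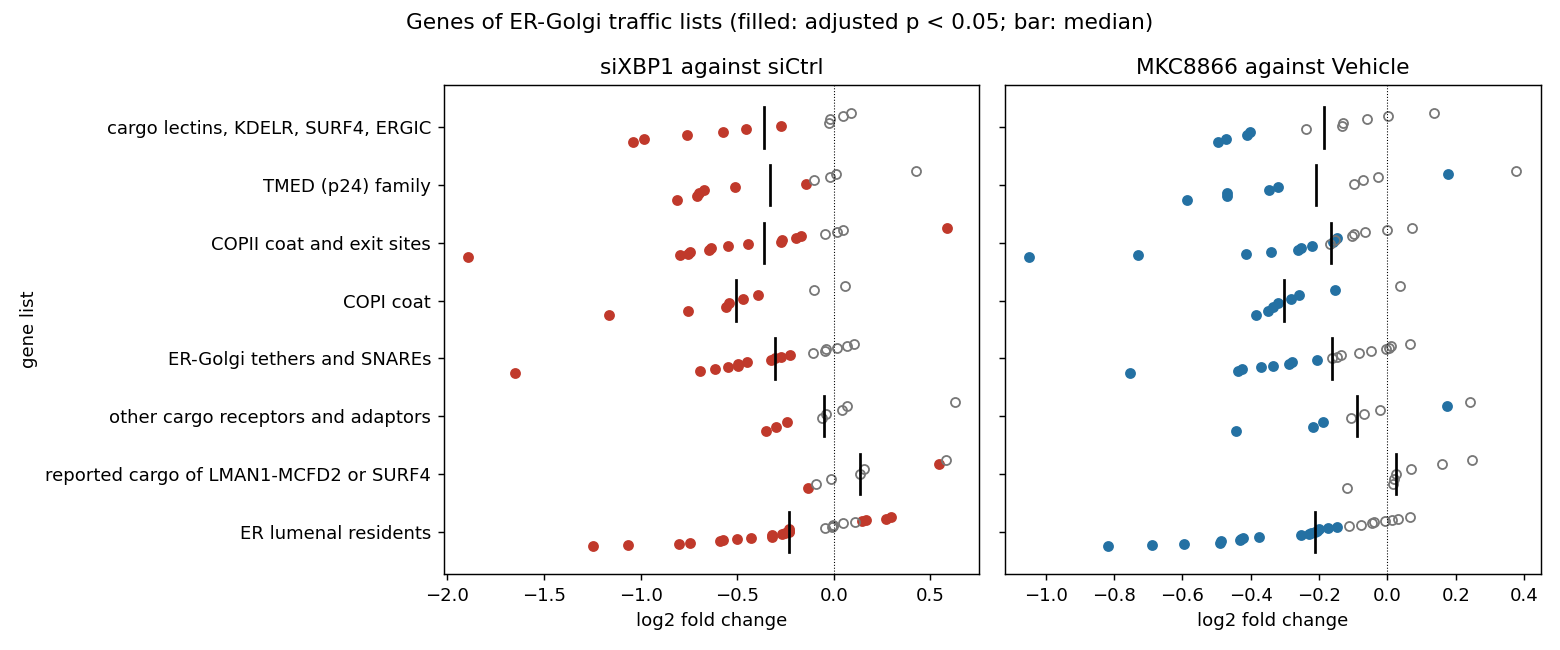
Log2 fold change of every tested gene in the 10-gene set and in 7 lists of ER-Golgi traffic genes after knockdown (left) and with MKC8866 (right); filled points passed an adjusted p under 0.05, open points did not, and black bars are list medians. The 2 horizontal axes differ in range, and the reported cargo list is the one with a median above 0 in both panels.

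The same 4 motifs were counted in the promoters of these lists. GCCACGT was present in 2 of 8 of the cargo receptor genes, 9 of 15 COPII genes, 4 of 9 COPI genes, 2 of 8 TMED genes, 2 of 13 tethers and SNAREs, 1 of 6 other cargo receptors, 1 of 7 reported cargo genes and 6 of 22 ER lumenal residents that had an entry, against 3.95% of all genes with one. The UPRE core was present in 1 of the 8 cargo receptor genes, 4 COPII genes, 3 COPI genes, 2 tethers and SNAREs and 3 residents, and in 0 genes of the other lists, against 0.927% of all genes. ERSE was present in 5 of the 22 residents (0.0916% of all genes) and ERSE-II in 2 residents and 1 reported cargo gene (0.0696%), and neither in any other of these lists. SURF4 and KDELR3, which hold GCCACGT, were both lower after knockdown, as were LMAN1, LMAN2 and MCFD2, which do not hold it in the window searched.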

How the data were processed

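Total RNA of LNCaP cells was sequenced in 16 libraries. Per the paper's methods and the file header, the authors made stranded paired-end libraries, aligned them to hg38 with STAR 2.5.2a and counted them with featureCounts 1.5.0 on Ensembl annotation. The deposited values are raw counts of fragments per gene, without strand, multimapping fragments or fragments overlapping 2 genes. Of 58051 genes, 56948 were matched to a symbol, and totals were 28713607 to 34509488 (median 30743136). The biological coefficient of variation was 5.40% (knockdown) and 4.97% (inhibitor).

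siXBP1 was set against siCtrl and MKC8866 against Vehicle in R 4.3.3 with edgeR 4.0.16 (TMM, quasi-likelihood F test, two-sided). A gene entered if both groups had a library with over 5 counts, with Benjamini-Hochberg adjustment over all genes tested and calls at 0.05. The interaction used all 16 libraries and 20357 genes. The scripts were tested on simulated data. DESeq2 1.42.0, the tool of the paper's methods, served as an alternative together with other scalings, filters, blocks and left-out libraries. Log2 fold changes, standard errors and CPM were computed here. Same-numbered inhibitor libraries deviated together (r = 0.102 to 0.379 over 15037 genes, across genes, 4 pairs), which met the rule for pairs that every r exceeds 0.1. Those of the knockdown did not (0.00110 to 0.0680). The main fits of both experiments and of the interaction took no library as paired, and the replicate block was run only as an alternative. Libraries with different numbers reached r = 0.159 in the inhibitor experiment and 0.148 in the knockdown, so the pairing is an assumption.

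The 10 genes and the lists were chosen with earlier results of these data known, and the sum and ratio without HSPA5 and HSP90B1 were added after the values were seen. From each list the 2 lowest and 2 highest called log2 fold changes with a mean of at least 1 CPM were named, plus ERGIC2, SEC24D, HSPA5, HSP90B1 and CALR. PDIA4, MANF, YIF1A after knockdown and the markers KLK3, FOLH1, ACTA2, COL1A1, VWF, PTPRC, CD3E and COL1A2 were named after their values were seen. A planned list of genes whose proteins end in KDEL-type signals was not made, as protein sequences were not used here, and 1 luminal marker and 1 gene near LMAN2 are not reported here. Promoter sequences are RefSeq's (GRCh38.p14).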

Additional observations from a re-analysis of the deposited data

Results flagged for a closer look

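The response to XBP1 knockdown differed from that to MKC8866, by the interaction test of edgeR, for 6 of the 10 genes (5 below and 1 above, against 12.7% and 10.6% of all genes tested). Each value is the log2 fold change after knockdown minus that with MKC8866. For LMAN1 it was −0.49, with all 4 treated libraries below all 4 controls in both experiments. For KDELR2 it was −0.64, again with all treated libraries below all controls in both. For SURF4 it was −0.16, for KDELR3 −0.52, for ERGIC1 −0.15 and for ERGIC3 0.15, with adjusted p between 0.0470 and 0.0498, and these 4 calls were lost under 14, 14, 15 and 13 of the 23 alternatives. The treatments ran in separate experiments with pretreatments of 2 days and 24 h, so treatment and experiment cannot be told apart. No library stood far from the other 3 of its group in any of the 40 combinations of gene and group.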

How the results depend on the processing

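The 6 genes called lower after knockdown numbered 6 under every alternative, and LMAN1, MCFD2, SURF4 and KDELR2 were called lower with MKC8866 in all 16 alternatives. The count of genes higher after knockdown was 1 (ERGIC3) with DESeq2, upper-quartile scaling, library totals or at least 10 counts in every library, and 0 to 1 when 1 library was left out (1 without siCtrl replicate 3). Over all genes, 3443, 4514, 4209 and 3664 were higher under these alternatives in that order, and 3475 (16.5%) in the main fit. With 1 library left out, 3172 to 3475 of all genes were higher. The count of the 10 genes higher with MKC8866 was 1 (ERGIC1) with upper-quartile scaling, library totals, no filter and the replicate block, and 0 to 1 with 1 library left out (1 without MKC8866 replicate 2). Genes lower with MKC8866 numbered 4 to 5 with 1 library left out, the additional gene being KDELR1 without Vehicle replicate 2 and LMAN2 without MKC8866 replicate 4. Over all genes, 527 to 833 were lower with MKC8866 in these fits. LMAN2 also passed with DESeq2 (adjusted p = 0.0167) and with at least 10 counts in every library (0.0394).

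The count of knockdown responses below those to MKC8866 was 3 with RLE scaling, 2 with upper-quartile scaling, 2 with library totals and 3 without the filter, and 2 to 5 with 1 library left out. It was 2 without siCtrl replicate 3 or 4, siXBP1 replicate 4, Vehicle replicate 4 or MKC8866 replicate 1, and 3 without siXBP1 replicate 1, 2 or 3, Vehicle replicate 2 or MKC8866 replicate 3 or 4. The count above was 0 without the filter, and 0 to 1 with 1 library left out (1 only without siCtrl replicate 3, Vehicle replicate 2 or 4 or MKC8866 replicate 3). Over all genes, 2578 responses were below and 2157 above in the main fit. With 1 library left out these were 2371 to 2655 and 1897 to 2139.

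Signs turned for genes near 0. After knockdown KDELR1 was at 0.032 with upper-quartile scaling, 0.018 with library totals and −0.042 to 0.0060 with 1 library left out (above 0 without siCtrl replicate 2 or 4 or siXBP1 replicate 3), and ERGIC1 at 0.029 and 0.015. With MKC8866 LMAN2L was at −0.00092 with at least 10 counts in every library and −0.028 to 0.034 with 1 library left out (below 0 without Vehicle replicate 2 or 4 or MKC8866 replicate 1, 2 or 3). The causes were not tested.

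With the replicate block, MKC8866 calls over all genes went from 654 to 1484 lower and from 287 to 1262 higher. With 1 library left out the higher calls were 180 to 484, with 188 without Vehicle replicate 3, and 180, 484, 184 and 191 without MKC8866 replicates 1, 2, 3 and 4. The block, in the interaction, brought LMAN2 past the threshold (−0.14, adjusted p = 0.0179). It changed no call of the 10 genes after knockdown, where same-numbered libraries did not meet the rule for pairs. KDELR3, with 66 counts in its lowest library, has the widest error of the 10 genes.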
